A study of Mus musculus with 15 samples.

Results

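The peaks of the Polycomb protein Mel18 (also called Pcgf2) in mouse embryonic stem cells (ESCs) were set against its peaks in early cardiac mesoderm precursors (MES), to describe how the bound stretches spread, joined or split between the 2 cell states. Members were all Mel18 peaks of both deposited lists on chromosomes 1 to 19, without a stretch at the start of chromosome 9 that held 17 ESC peaks and 0 MES peaks. This kept 6394 of 6593 ESC peaks and 4048 of 4165 MES peaks, 10442 peaks in all, of the 30692 peaks in the 5 peak lists used from the series. The lists were ESC Mel18 and MES Mel18, Cbx2, Ring1b and RYBP. ESCs were of the line E14Tg2A and were kept undifferentiated in medium with kinase inhibitors and leukaemia inhibitory factor. MES were made from the same line by a cardiac differentiation protocol with BMP4, a growth factor that induces mesoderm, and the same antibody lot was used against Mel18 in both states. Each state was 1 ChIP-seq library, so nothing here has a replicate check, and no test between the states was possible. Both states came from that 1 cell line. Read depth was unknown, and peak number, width and splitting all depend on it and on the peak calling. Intervals are exact 95% intervals that cover counting only and treat peaks as independent, although neighbouring peaks can belong to 1 stretch.

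Mel18 is a PCGF subunit of canonical Polycomb repressive complex 1 (PRC1), which also holds the ubiquitin ligase Ring1b and a chromodomain subunit such as Cbx2 that reads trimethylated lysine 27 of histone H3. RYBP takes the place of the chromodomain subunit in variant PRC1. In ESCs PRC1 is known to occupy CpG islands of silent developmental genes, with its longest stretches over the Hox gene clusters. Peaks are named by their mm9 coordinates, and no gene was assigned to a peak because no annotation of that build was used. The cell types were taken from the labels and were not checked against marker genes.

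Over 50% of the peaks of either state overlapped a peak of the other, and overlapping stretches were mostly wider in MES. ESC peaks covered 10.5 Mb and MES peaks 11.8 Mb, and 7.17 Mb were covered in both. That was 68.0% of the ESC bases and 61.0% of the MES bases, and 47.4% of the bases covered in either state. By number of peaks, 3385 of 6394 ESC peaks (52.9%, interval 51.7 to 54.2) overlapped a MES peak by at least 1 bp, and 2688 of 4048 MES peaks (66.4%, interval 64.9 to 67.9) overlapped an ESC peak. The order of these shares depended on the lengths of the lists: with the highest-scoring peaks of both at equal number, 71.2% of ESC and 59.7% of MES peaks were shared. Without peaks of 10 kb or more the ESC share was 44.9%. The shared peaks held 72.2% of the ESC bases and 84.6% of the MES bases, because they were wider. Median width was 1690 bp for shared and 788 bp for ESC-only peaks, and 2420 bp for shared and 1088 bp for MES-only peaks.

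The change in covered length had separate sources. The 3009 ESC-only peaks took away 2.93 Mb and the 1360 MES-only peaks brought 1.82 Mb. Median scores were 73.1 for ESC-only against 367 for shared ESC peaks, and 73.0 for MES-only against 295 for shared MES peaks. Many state-only peaks thus scored near the lower end of their list, at 50. How far they depend on depth or the calling threshold was not tested. At shared sites the ESC peaks covered 7.61 Mb and the MES peaks 9.94 Mb, a net gain of 2.33 Mb. Of the 2.77 Mb that MES peaks covered beyond ESC peaks at shared sites, 2.31 Mb (83.3%) lay outside the outermost ESC edges and 0.463 Mb (16.7%) lay between ESC peaks. Only 0.439 Mb of ESC bases at shared sites were not covered in MES. The bases gained at shared sites therefore exceeded those gained in MES-only peaks.

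Overlapping peaks were collected into 2600 groups, each a set of ESC and MES peaks linked by overlap. In 2041 groups (78.5%) a single ESC peak met a single MES peak. In 475 groups (18.3%) 1 MES peak lay over several ESC peaks, 1204 in all, so that the ESC peaks were joined. In 51 groups (1.96%) 1 ESC peak lay over several MES peaks, 105 in all, so that the ESC peak was split. The last 33 groups (1.27%) held several peaks of each state.

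Seen from single peaks, 509 of 2688 shared MES peaks (18.9%, interval 17.5 to 20.5) carried 2 or more ESC peaks. Of these, 378 carried 2, 67 carried 3, 36 carried 4 and 28 carried 5 or more, with a maximum of 23. In the other direction 84 of 3385 shared ESC peaks (2.48%, interval 1.98 to 3.06) carried 2 or more MES peaks, and 4 of them carried 3, the maximum. Counted by the peaks that were joined or split, 38.2% of shared ESC peaks (interval 36.6 to 39.9) sat with another ESC peak on 1 MES peak, and 6.40% of shared MES peaks (interval 5.50 to 7.39) sat with another MES peak on 1 ESC peak. MES peaks with 1 ESC partner had a median width of 2150 bp, those with 2 had 3697 bp, those with 3 had 10405 bp and those with 5 or more had 21294 bp. A wider peak has room for more partners, so partner number and width are not separate observations. How far joining holds depends on how a stretch was cut into peaks. With peaks of each list within 1 kb joined beforehand, 15.7% of shared ESC peaks were joined and 0.662% of shared MES peaks split.

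**Figure D1:**
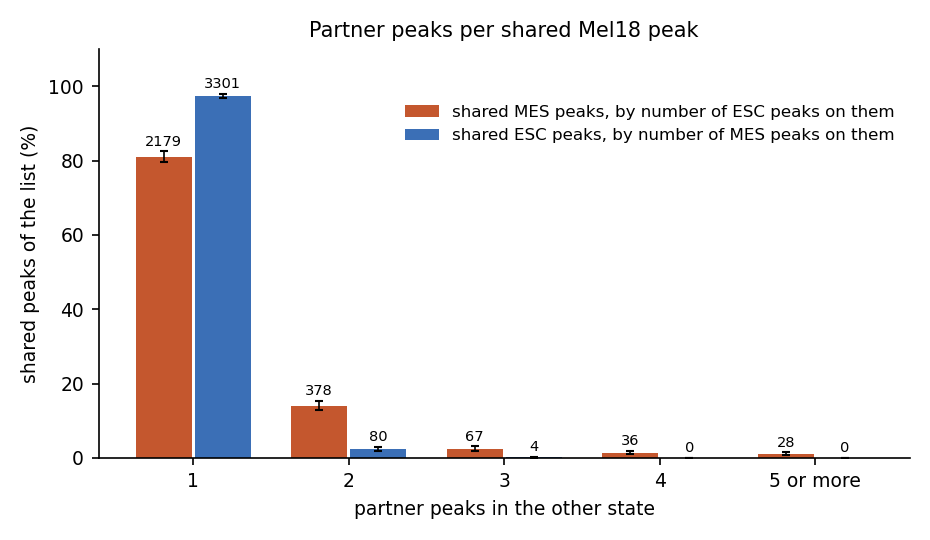
Bars give the share of shared peaks of each list (%, vertical axis) that overlap 1, 2, 3, 4 or 5 or more peaks of the other state, with the number of peaks above each bar and exact 95% intervals for counting. Of the shared MES peaks 509 lie on 2 or more ESC peaks, against 84 shared ESC peaks that lie on 2 or more MES peaks.

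The largest joined stretch lay at chr6:52101429-52219547. There 1 MES peak of 118119 bp took the place of 23 ESC peaks, which were between 470 and 13377 bp wide and together covered 95087 bp. The gaps between those ESC peaks had a median of 456 bp and reached 7664 bp. The MES edges lay 859 bp and 2261 bp outside the first and last ESC peak. More of the added length there thus lay in filled gaps than at the outer edges.

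At chr2:74491686-74554686 14 ESC peaks, together 54511 bp, lay on a MES peak of 63001 bp, with MES edges 947 and 169 bp outside them. At chr8:59793905-59833052 10 ESC peaks, together 21697 bp, lay on a MES peak of 39148 bp. Its left edge lay 4292 bp outside the first ESC peak, and its right edge lay 156 bp inside the last one. Outward spread and filled gaps were thus both present on chromosome 8. At chr3:128897103-128930849 8 ESC peaks of 27008 bp lay on a MES peak of 33747 bp, and at chr6:83642261-83670761 8 ESC peaks of 18052 bp lay on a MES peak of 28501 bp. At these 5 stretches MES Cbx2 peaks covered 96.8 to 99.7% and MES Ring1b peaks 94.5 to 99.96% of the MES Mel18 peak. MES RYBP peaks covered 18.8 to 69.1%. Over all MES Mel18 bases the Cbx2, Ring1b and RYBP shares were 84.8, 79.5 and 56.5%, so RYBP was the lowest there too.

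**Figure D2:**
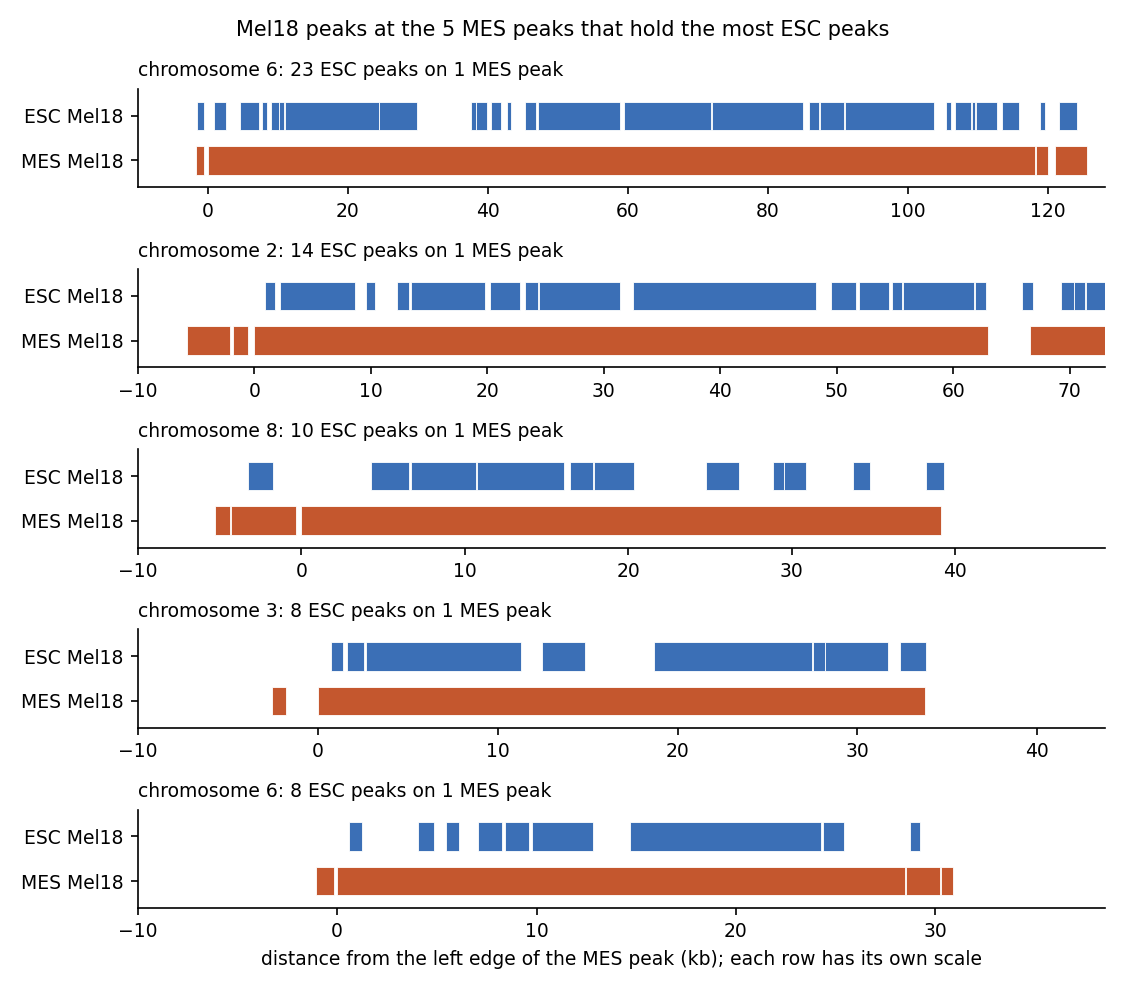
Each panel shows ESC Mel18 peaks (upper row) and MES Mel18 peaks (lower row) as bars along the distance from the left edge of the named MES peak, in kb, with 10 kb on either side. In each panel 1 MES bar runs under 23, 14, 10, 8 or 8 separate ESC bars.

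Splitting was on a smaller scale. The 4 ESC peaks with 3 MES peaks on them lay at chr14:122871311-122885648, chr18:15307773-15310701, chr6:92890450-92894740 and chr6:51117908-51125472. On chromosome 18 the MES peaks covered 2880 bp and were separated by gaps of 22 and 45 bp, so the ESC peak of 2929 bp was replaced by nearly the same length in pieces. On chromosome 6 the ESC peak of 7565 bp was left with MES peaks of 804 to 1059 bp, together 2867 bp, with gaps of up to 4922 bp. These cases differ, in that the former kept its length and the latter lost most of it. The next ESC peak in the ranking, at chr17:86087435-86093012, had 2 MES partners of 6803 and 8769 bp that were 27 bp apart and reached 8650 and 1371 bp beyond its edges. The median ratio of MES to ESC length over all split groups was 1.12 (interval 1.02 to 1.17).

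Covered length per group was compared next. A MES length of at least 1.5 times the ESC length was found in 763 of 2600 groups (29.3%), and the reverse in 117 (4.50%). Among one-to-one pairs it was found in 608 of 2041 (29.8%), and the reverse in 106 (5.19%). Among joined groups it was found in 146 of 475 (30.7%), with the reverse in 7, and among split groups in 4 of 51 (7.84%), with the reverse in 3. The median ratio was 1.23 in one-to-one pairs (interval 1.20 to 1.26) and 1.31 in joined groups (interval 1.27 to 1.34). The MES length was the greater in 1520 one-to-one pairs (74.5%) and in 415 joined groups (87.4%). Change of 3 times or more was rare and one-sided among one-to-one pairs, with 84 wider and 7 narrower in MES.

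One-to-one pairs allow each edge to be followed. The left MES edge lay a median of 149 bp outside the ESC edge (interval 127 to 173) and the right edge 140 bp outside (interval 125 to 164). Left and right carry no biological meaning without gene strand, and the values for both sides overlapped in their intervals. Over both edges, 44.8% lay more than 200 bp outside, 12.2% more than 200 bp inside and 43.1% within 200 bp. The outward shifts had the longer tail, with 427 edges over 1 kb outside and 52 over 1 kb inside, and with 8 over 5 kb outside and 1 over 5 kb inside.

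At a tolerance of 200 bp, spread more often moved 1 edge than both. In 689 pairs (33.8%, interval 31.7 to 35.9) 1 edge moved outward and the other stayed within 200 bp. In 492 pairs (24.1%, interval 22.3 to 26.0) both moved outward, with median widths of 1794 bp in ESCs and 3359 bp in MES. With an edge tolerance of 500 bp this share was 11.5%. In 424 pairs (20.8%) both edges stayed within 200 bp. One edge moved inward beside a still one in 221 pairs (10.8%), both moved inward in 61 (2.99%), and 154 pairs (7.55%) slid, with 1 edge out and the other in. The sliding pairs were balanced, 79 toward the left and 75 toward the right. Counted without a tolerance, 1074 ESC peaks (52.6%) lay wholly inside their MES peak and 244 MES peaks (12.0%) wholly inside their ESC peak. Whether spread at 1 edge or at both was the more common thus depended on the tolerance. Peak centres stayed within 500 bp of each other in 1749 pairs (85.7%), with a median distance of 190.5 bp. The shifts of left and right edges of the 2041 pairs had a Pearson r of 0.34 and a Spearman rho of 0.27, which is a description, since both edges come from the same pair of libraries.

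**Figure D3:**
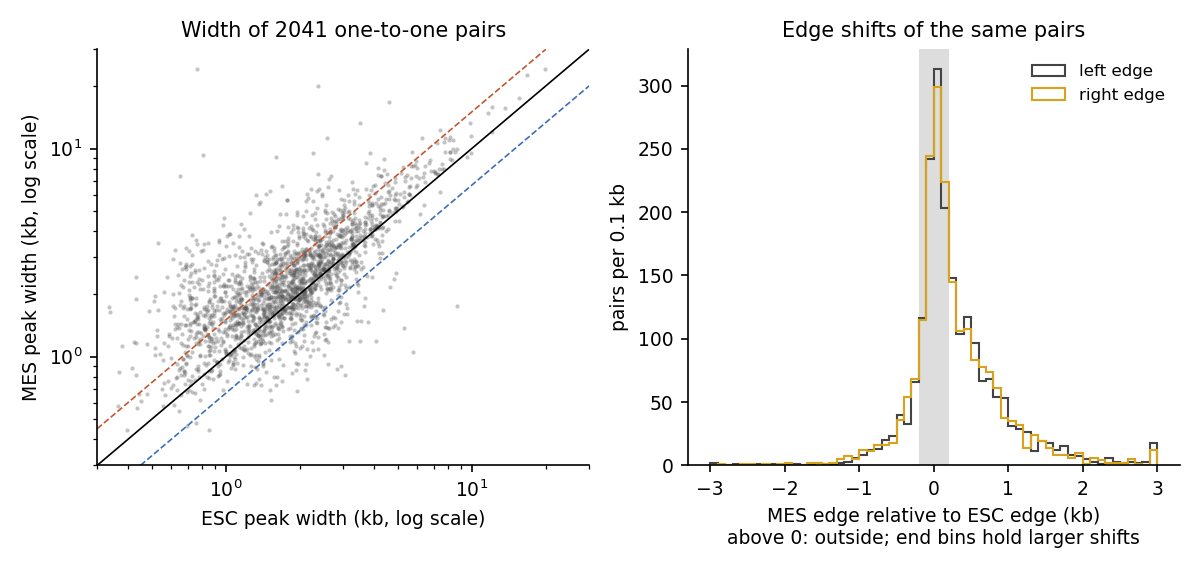
Left, width of the MES peak against width of the ESC peak of 2041 one-to-one pairs, in kb on log axes, with a line of equal width and dashed lines at 1.5 times in either direction. Right, number of pairs per 0.1 kb of edge shift for left and right edges, with the band of 200 bp on either side of no shift in grey; 44.8% of edges lie outside the band on the outward side and 12.2% on the inward side.

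The spread was not limited to narrow or weak sites. Divided into 4 equal classes by the geometric mean of both widths, the pairs had median ratios of 1.34, 1.18, 1.17 and 1.24 from the narrowest to the widest class. In base pairs the shift grew, from a median of 94.5 bp per edge in the narrowest class to 377 bp in the widest. Split by the mean rank of the authors' scores within each list, the ratios were 1.34, 1.17, 1.18 and 1.23 from the lowest to the highest class, and the median edge shift was 317 bp in the highest. In that class 86.5% of pairs were wider in MES. Split by ESC width alone the ratio fell from 1.67 to 1.10, and split by MES width alone it rose from 1.02 to 1.37. Both of those splits use a width that is part of the ratio, which pushes the ends apart, and neither is read further. By chromosome, the median ratio was above 1 on 19 of 19 chromosomes, from 1.03 on chromosome 14 to 1.41 on chromosome 4. Chromosomes come from the same libraries and are not replicates.

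The pairs that gained most width stood far outside that range. On chromosome 5 an ESC peak of 767 bp (chr5:120110543-120111309) lay in a MES peak of 24030 bp (chr5:120105025-120129054), which reached 5518 bp further left and 17745 bp further right. On chromosome 3 an ESC peak of 2381 bp (chr3:34562591-34564971) lay in a MES peak of 20029 bp (chr3:34546523-34566551), and most of the gain, 16068 bp, was on the left. The next were on chromosome 1 (MES peaks chr1:91817620-91834301, 16682 against 4596 bp, and chr1:19089670-19102954, 13285 against 3496 bp) and chromosome 4 (chr4:88933738-88944960, 11223 against 2582 bp). In all 5 both edges lay outside the ESC edges by 1580 bp or more. In MES, Cbx2 peaks covered at least 99.2% of each of these 5 peaks, Ring1b peaks 89.6 to 96.4% and RYBP peaks 24.1 to 70.1%. The shares over all MES Mel18 bases were 84.8, 79.5 and 56.5%. All 5 MES peaks had the score 3100, at which values pile up in the list. The ESC peak on chromosome 5 had a score of 57.2, near the list's lower end of 50. The ESC peaks of the other pairs had scores from 284 to 1647.

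The pairs that lost most width lost less. On chromosome 6 an ESC peak of 8714 bp (chr6:52259673-52268386) was met by a MES peak of 1742 bp at its right end (chr6:52266445-52268186), so that the left edge lay 6772 bp further in. On chromosome 8 an ESC peak of 5785 bp (chr8:35867934-35873718) was met by a MES peak of 1046 bp, also at its right end. The others were on chromosome 18 (ESC peak chr18:47525291-47530567, 5277 to 1371 bp), chromosome 8 (chr8:36649832-36653918, 4087 to 1186 bp) and chromosome 16 (chr16:9992071-9996405, 4335 to 1683 bp). In MES, 4 of these 5 remnants had no Cbx2 base, and the one on chromosome 16 was wholly covered by Cbx2. RYBP peaks covered at least 58.0% of each remnant, and Ring1b peaks from 5.62% to the whole of it. The ESC peaks of the pairs on chromosomes 6 and 18 had the score 3100, and their MES peaks had scores of 53.7 and 74.3, near the list's lower end of 50.

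Joining can also be read from the gaps. There were 1731 gaps of up to 10 kb between neighbouring ESC peaks, and 1 MES peak covered 785 of them whole (45.3%, interval 43.0 to 47.7). Of 893 such gaps between MES peaks, 1 ESC peak covered 88 (9.85%, interval 7.98 to 12.0). The share depended on gap length. It was 62.6% for ESC gaps of up to 200 bp, 53.4% for 200 to 500 bp, 52.7% for 500 to 1000 bp, 42.5% for 1000 to 2000 bp, 22.9% for 2000 to 5000 bp and 1.63% for 5000 to 10000 bp. For MES gaps it was 18.02% up to 200 bp and 6.62% from 200 to 500 bp, and at most 2.50% in every longer class. The bridged ESC gaps had a median of 165 bp and together 463 kb, and the bridged MES gaps a median of 44.5 bp and together 21.02 kb. The difference thus held for gaps of each length class up to 5000 bp, while from 5000 to 10000 bp both shares were near 0. Wide MES peaks carried much of it: without peaks of 10 kb or more in either list, 24.8% of ESC gaps and 9.84% of MES gaps were bridged.

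A gap can be bridged only where both of its flanking peaks are shared. A bridging peak also makes both flanks shared, so a count limited to such gaps raises the share by construction. Among the 1072 ESC gaps with both flanks shared, 73.2% were bridged (interval 70.5 to 75.9), against 24.6% of 358 MES gaps (interval 20.2 to 29.4). In the shortest class these shares were 91.8% and 41.5%. The longest bridged gap, of 7664 bp, was in the long stretch at chr6:52131301-52138964. The next were on chromosome 1 (chr1:78205496-78211330, 5835 bp), chromosome 9 (chr9:91265299-91270963, 5665 bp) and chromosome 7 (chr7:86682506-86687120, 4615 bp, and chr7:86654427-86658962, 4536 bp). The pair on chromosome 7 belonged to separate MES peaks, of 14667 and 23875 bp, and the gap on chromosome 9 joined ESC peaks of 10414 and 9485 bp.

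**Figure D4:**
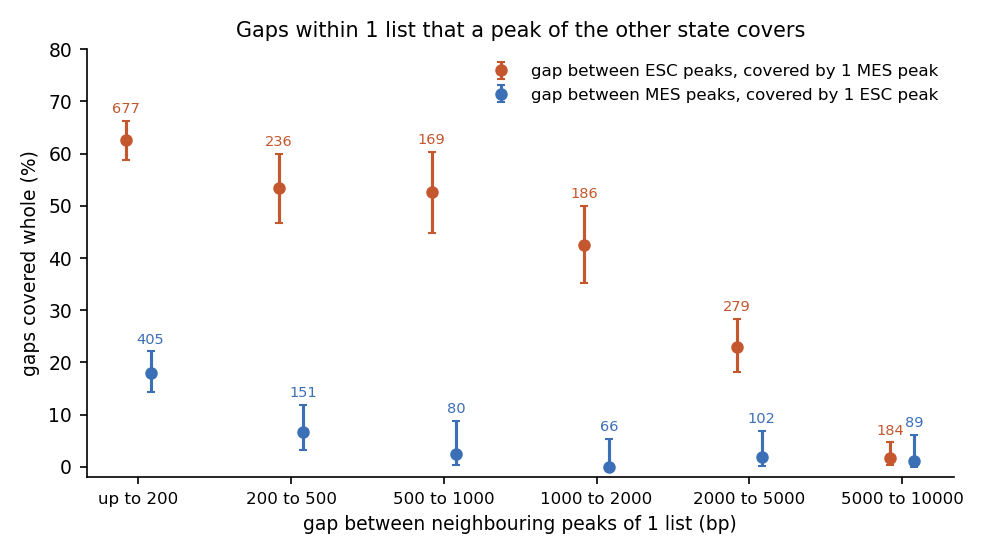
Share of gaps between neighbouring peaks of 1 list that a single peak of the other state covers whole (%), by gap length in bp, with the number of gaps above each point and exact 95% intervals for counting. Gaps between ESC peaks are covered in 62.6% of cases up to 200 bp and in 22.9% at 2000 to 5000 bp, and gaps between MES peaks in 18.02% and 1.96%.

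Other PRC1 subunits of MES were separate libraries that took no part in choosing the pairs. On the 3.99 Mb that one-to-one pairs kept in both states, peaks of Cbx2 covered 86.8%, of Ring1b 90.6% and of RYBP 76.3%. On the 1.57 Mb gained at their edges in MES, Cbx2 covered 78.6%, Ring1b 53.8% and RYBP 23.7%. On the 0.345 Mb lost at their edges the shares were 48.9, 42.6 and 43.3%. In bridged gaps Cbx2 covered 97.5%, Ring1b 92.8% and RYBP 18.9% of the bases, and in gaps between shared ESC peaks that stayed open 61.8, 36.5 and 7.38%. Over all MES Mel18 bases the shares were 84.8, 79.5 and 56.5%. Bases gained at the edges of one-to-one pairs were thus below the shares over all MES Mel18 bases for Cbx2, Ring1b and RYBP alike. Bases in bridged gaps were above them for Cbx2 and Ring1b and below for RYBP. Edges of the other groups were not measured in this way. Peak widths of the Cbx2, Ring1b and RYBP lists are not given here, and the part of peak breadth in these shares was not tested.

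State-only peaks stood differently in the 2 states. MES-only peaks often lay beside shared stretches, and ESC-only peaks mostly lay far from them. Of the 3009 ESC-only peaks, 298 (9.90%, interval 8.86 to 11.03) lay within 10 kb of a shared ESC peak, and 121 (4.02%) within 1 kb. Of the 1360 MES-only peaks, 406 (29.9%, interval 27.4 to 32.4) lay within 10 kb of a shared MES peak, and 286 (21.03%) within 1 kb. The median distance was 191 kb for ESC-only peaks (interval 181 to 205) and 99.9 kb for MES-only peaks (interval 82.3 to 115). Shared peaks give the scale of each list: 49.8% of shared ESC peaks and 25.9% of shared MES peaks had another shared peak within 10 kb. ESC-only peaks were thus farther from shared peaks than those were from each other, and MES-only peaks were about as near. Part of this follows from the definition, since an ESC peak next to a shared one counts as shared when both lie under 1 wide MES peak. With peaks within 1 kb joined beforehand, the shares within 10 kb were 6.32% and 9.34%, so most of the nearness of MES-only peaks lay in gaps of under 1 kb. Among the better-scoring 50% of either list they were 5.88% and 27.0%.

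**Figure D5:**
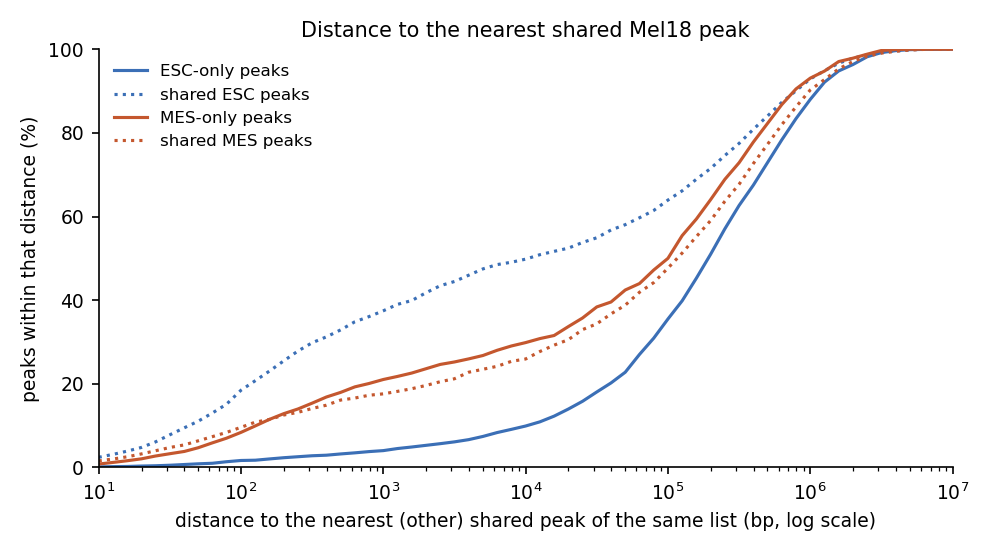
Cumulative share of peaks (%) against the distance to the nearest shared peak of the same list (bp, log axis), for ESC-only and MES-only peaks (solid) and for shared peaks to the nearest other shared peak (dotted). At 10 kb the curves stand at 9.90% for ESC-only, 29.9% for MES-only, 49.8% for shared ESC and 25.9% for shared MES peaks.

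The MES-only peaks within 10 kb had 347 shared MES neighbours, with a median width of 3821 bp against 2420 bp for all shared MES peaks, and 62 of the 168 shared MES peaks of 10 kb or more were among them. Of these MES-only peaks 70 (17.2%) had shared peaks within 10 kb on both sides and 336 on 1 side. The ESC-only peaks within 10 kb had 262 shared neighbours with a median width of 1806 bp, close to the 1690 bp of all shared ESC peaks, and 20 (6.71%) had one on both sides. The MES-only peaks near shared ones thus often lay beside wide shared peaks.

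The overlap with other MES subunits differed with distance. Of all MES-only peaks 52.1% overlapped a Cbx2 peak, 55.0% a Ring1b peak and 43.3% a RYBP peak, against 84.2, 94.7 and 88.3% of shared MES peaks. Of MES-only peaks within 1 kb of a shared peak, 79.7% overlapped a MES Cbx2 peak and 18.2% a RYBP peak, whereas over 100 kb away 43.8% overlapped Cbx2 and 54.7% RYBP. Ring1b was at 54.9 and 57.8%. Of all ESC-only peaks 10.9% overlapped a MES Cbx2 peak, 32.1% a Ring1b peak and 36.9% a RYBP peak. From within 1 kb, through 1 to 10 kb and 10 to 100 kb, to over 100 kb, the Cbx2 share was 56.2, 15.8, 7.53 and 8.91%. Over the same classes the Ring1b share was 41.3, 21.5, 28.1 and 34.1% and the RYBP share 50.4, 23.2, 32.3 and 39.2%, so that these 2 were lowest at 1 to 10 kb and did not fall steadily with distance. Median width changed little with distance, from 1009 to 1147 bp for MES-only and from 720 to 799 bp for ESC-only peaks.

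Of the MES-only peaks near a shared one, the highest scores were at chr5:120129690-120140283, chr7:57168609-57172948, chr17:26983317-26985866, chr8:96694492-96699241 and chr11:68210501-68215409. The peak on chromosome 5 was 10594 bp wide and lay 635 bp from the MES peak that had gained most width, so that MES Mel18 there ran on beyond the single narrow ESC peak. Those on chromosomes 7 and 17 lay 14 and 16 bp from a shared peak, and those on chromosomes 8 and 11 lay 3020 and 6720 bp away. Over 100 kb from any shared peak, the highest scores were at chr1:121315620-121321122 and chr1:138841079-138851646, chr14:65203666-65210874, chr4:84318155-84323665 and chr18:5591857-5594747. Their widths ran from 2891 to 10568 bp and their distances from 638.5 to 2132 kb.

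Of the ESC-only peaks near a shared one, the highest scores were at chr11:23977867-23983044 and chr11:96200882-96216808, chr6:48393141-48396973, chr9:118395262-118399007 and chr7:48156555-48158728. The first of these, 5178 bp wide, lay 44 bp from a shared ESC peak, so that Mel18 was called in MES on 1 side of that short break and not on the other. The one on chromosome 7 lay 27 bp from a shared peak. Over 100 kb away, the highest scores were at chr15:102779725-102786041 and chr15:102764156-102771242, chr3:130811764-130816560 and chr3:148650117-148654015 and chr13:115245755-115251361. The peaks on chromosome 13 and at chr3:148650117 lay 1419 and 2765 kb from the nearest shared peak.

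State-only peaks also came in runs, in which neighbouring peaks of a list lay within 10 kb of each other and none was shared. Runs held 636 ESC-only peaks (21.1%) in 267 runs and 243 MES-only peaks (17.9%) in 112 runs. Most runs were pairs, 220 in ESCs and 97 in MES. Runs of 5 or more peaks numbered 6 in ESCs, with 66 peaks, and 1 in MES, with 6 peaks. The longest ESC runs held 24 peaks over 133.0 kb at chr15:102739698-102872665 and 15 peaks over 94.1 kb at chr11:96122747-96216808, and no MES Mel18 peak lay within either. The next lay on chromosome 18 (chr18:37159041-37182279, 9 peaks, and chr18:37105435-37122559, 8 peaks) and chromosome 19 (chr19:45089600-45115368, 5 peaks). The MES run of 6 peaks lay at chr1:19209296-19219173, and the 5 MES runs with the most peaks were 9.04 to 15.9 kb long. Runs of 5 or more state-only peaks were thus found mostly in ESCs. A stretch called as 1 wide peak does not count as a run. Median peak width was 1878.5 bp in the MES list and 1114.5 bp in the ESC list.

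A state-only peak rarely had a counterpart in the other state close by. Of ESC-only peaks 30 (0.997%) had a MES-only peak within 1 kb and 93 (3.09%) within 10 kb. Of MES-only peaks 30 (2.21%) had an ESC-only peak within 1 kb and 85 (6.25%) within 10 kb. Sites that moved a short way without overlap were therefore few beside the 3009 and 1360 state-only peaks.

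The share of shared peaks varied between chromosomes. For ESC peaks it ran from 39.9% on chromosome 15, which holds the long ESC-only run, to 63.4% on chromosome 13, with a median of 52.5%. For MES peaks it ran from 58.3% on chromosome 8 to 76.0% on chromosome 16. The share of shared ESC peaks in joined groups ran from 27.1% on chromosome 3 to 47.4% on chromosome 13. No chromosome had a median edge shift below 0 on either side.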

How the data were processed

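Mel18 ChIP-seq peak lists of ESCs and MES were used, 1 library each, with the MES Cbx2, Ring1b and RYBP lists beside them. Reads were placed on mm9, and Bowtie and TopHat were named without versions, per the submitters' processing notes. Peak names carry the tag of the caller MACS, per the file headers and names. The caller's version, settings and control, and any pooling, are not given in the sources used here. Each score that the authors deposited is at least 50, with a pile at 3100. Its scale was not stated, so it only ranked peaks within 1 list. Starts were turned to counting from 1 for printing.

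Peaks overlapped at 1 bp or more. Groups were connected sets of overlapping peaks. Distances and gaps were measured edge to edge, an edge counted as moved beyond 200 bp, and near meant within 10 kb. Shares have Clopper-Pearson intervals and medians exact order-statistic intervals, at 95%. No test was run, since each state had 1 library. Regions named were the 5 extremes of each kind: partner numbers, width change, bridged gaps, and score of state-only peaks near (10 kb) or far (100 kb) from shared ones. Members, lists and rules were chosen with earlier results of these data known. The comparison with Cbx2, Ring1b and RYBP and the runs of state-only peaks were added after the data were examined.

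The reference tables at hand were of GRCm38, so their gene names and sequences were not placed on mm9 peaks. Overlaps and distances were checked against bedtools 2.31.1, with 0 of 3473 overlapping pairs and 0 of 3009 ESC-only distances that differed. On simulated data with known joins, splits, shifts and distances, 2594 of 2594 items were recovered. Tools were Python 3.11.15 with pandas 2.3.3, numpy 2.4.6, matplotlib 3.10.9 and scipy 1.17.1. Alternatives were a 50% overlap rule, joining within 1 kb, the upper 50% by score, equal list lengths, no peaks of 10 kb or more, all chromosomes, and other edge, gap and distance limits.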

Additional observations from a re-analysis of the deposited data

How the results depend on the processing

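No paired analysis was possible because each state had 1 library. Of 73 values recomputed under the alternatives, 34 stayed within the interval of the main value and 39 moved outside it. Beyond what an alternative changes by construction, the cause of these moves was not tested. Unknown depth limits all counts, widths and gaps. With 50% of the shorter peak required, 35.4% of shared ESC peaks were joined and 2.76% of shared MES peaks split. With peaks within 1 kb joined, 49.98% of ESC and 70.8% of MES peaks were shared. Of the pairs, 27.6% were at least 1.5 times wider in MES and 27.7% had both edges outward. Of shared ESC peaks 15.7% were joined, and of shared MES peaks 0.662% were split. Bridged gaps were 37.6% in ESCs and 3.11% in MES, and 6.32% of ESC-only and 9.34% of MES-only peaks were near shared ones. In the upper 50% by score, these shares were 61.2% and 77.9% shared, 33.3% with both edges outward, 34.8% joined, 3.55% split, 53.5% of ESC gaps bridged, and 5.88% and 27.0% near, with a median width ratio of 1.27. With lists of equal length, 71.2% of ESC and 59.7% of MES peaks were shared, so the order of the 2 shares turned. There 27.4% of pairs were at least 1.5 times wider in MES and 31.9% of shared ESC peaks were joined. Of ESC gaps 53.1% were bridged, and 26.6% of MES-only peaks were near. Without peaks of 10 kb or more, 44.9% of ESC and 64.8% of MES peaks were shared, and 27.3% of shared ESC peaks were joined. Of ESC gaps 24.8% were bridged, and 11.3% of ESC-only and 25.1% of MES-only peaks were near. An edge tolerance of 500 bp gave 11.5% with both edges outward, and gaps of up to 5 kb gave 50.5% bridged in ESCs. Near as 5 kb gave 7.41% of ESC-only and 26.8% of MES-only peaks, and distance to any peak of the other state gave 12.1% and 33.6%. Values over all chromosomes stayed within the intervals. The median width ratio was only part of these values. It ranged from 1.21 to 1.27 over the alternatives that recomputed it, and so stayed above 1.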
